A study of Mus musculus with 16 samples.

Results

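The MEF2 transcription factors and the class IIa histone deacetylases were measured with 16 of the 25697 probes of a hippocampal expression array. The 8 genes, of 17567 named on the array, were *Mef2a*, *Mef2b*, *Mef2c* and *Mef2d*, with 9 probes, and *Hdac4*, *Hdac5*, *Hdac7* and *Hdac9*, with 7 probes. A probe was taken when its listed symbol, or an older name with the same Entrez number, was one of these genes, so that the *Hdac4* probe is listed as 4932408F19Rik and the *Hdac7* probe as Hdac7a.

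The mice were *Mef2c*-het animals and wild-type (WT) littermates on the C57BL/6J background, at postnatal day 1 (P1) and postnatal day 30 (P30). *Mef2c*-het mice carry 1 *Mef2c* allele that lacks exon 2 in every cell of the body, and the sample labels call them KO. Each of the 4 groups (WT and *Mef2c*-het at each age) had 4 arrays of whole hippocampal RNA, named here by the replicate numbers of the labels. No group received a treatment, and sex, chip and the litter of each mouse are not given in the sources used here, so that p-values measure the spread between these samples. The levels belong to a whole tissue, in which fewer cells of a type and less RNA per cell cannot be told apart.

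MEF2 proteins are MADS-box factors that bind an AT-rich motif and switch on genes of neuronal survival, synapse number and plasticity. Class IIa deacetylases bind MEF2 directly and hold its target genes off. Calcium-activated kinases phosphorylate the deacetylases, 14-3-3 proteins then keep them in the cytoplasm, and MEF2 is released. MEF2C is the family member most studied in the developing forebrain, HDAC4 and HDAC5 are abundant in neurons, and HDAC7 is best known from endothelium and thymocytes.

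The RefSeq promoter table (GRCm38.p6) held 14 entries for the 8 genes, and the 250 bases before the start are shown for the 3 genes with the clearest change with age. *Hdac4* (chr1:92180342-92180591, minus strand) and *Hdac5* (chr11:102230173-102230422, minus strand) were higher at P30, and *Hdac7* (chr15:97831496-97831745, minus strand) was lower at P30. *Hdac7* has 4 entries, and the one that holds a GC box is shown. Capitals mark the GC box (its letters are GGGCGG), the CCAAT box and the consensus MEF2 motif, each searched on both strands. The sequences run 5′ to 3′ and end at the base before the start of the entry. For *Hdac4* and *Hdac7* that start lies inside the annotated gene.
Hdac4: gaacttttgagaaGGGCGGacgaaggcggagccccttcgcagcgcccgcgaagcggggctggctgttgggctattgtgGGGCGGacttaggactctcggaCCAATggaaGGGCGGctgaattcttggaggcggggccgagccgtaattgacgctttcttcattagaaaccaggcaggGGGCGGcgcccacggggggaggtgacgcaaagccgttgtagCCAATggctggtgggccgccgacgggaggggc
Hdac5: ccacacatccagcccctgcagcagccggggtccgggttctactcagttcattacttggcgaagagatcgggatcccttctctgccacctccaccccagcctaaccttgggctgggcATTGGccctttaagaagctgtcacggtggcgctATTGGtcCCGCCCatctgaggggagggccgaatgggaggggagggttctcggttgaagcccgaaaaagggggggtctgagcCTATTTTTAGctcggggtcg
Hdac7: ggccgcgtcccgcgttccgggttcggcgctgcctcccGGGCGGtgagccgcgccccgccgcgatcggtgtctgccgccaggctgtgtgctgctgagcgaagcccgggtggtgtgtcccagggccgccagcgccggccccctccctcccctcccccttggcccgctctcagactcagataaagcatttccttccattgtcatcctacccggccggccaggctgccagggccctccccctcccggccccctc
The last capitals of the *Hdac5* sequence, CTATTTTTAG, match the MEF2 consensus from 20 to 11 bases before the start. None of the other 13 entries held this motif, which was found in 2.92% of the 32851 promoter entries of all genes, and these exact letters were found in 0.103% of them. *Hdac4* held 4 GC boxes and 2 CCAAT boxes, and *Hdac5* held 1 GC box and 2 CCAAT boxes. The *Hdac7* entry shown was chosen by its GC box, and the other *Hdac7* entries held none of the marked motifs. The GC box was found in 32.7% and the CCAAT box in 33.8% of all entries. A match of letters is a description of the window and was not related to binding here.

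Intensities on the deposited scale showed which genes the array could read. A probe was called detected on an array when its detection p-value, set against negative control beads, was under 0.05. *Mef2d*, *Hdac4*, *Hdac7*, all 3 *Hdac5* probes, 2 of 3 *Mef2c* probes and 1 of 3 *Mef2a* probes were detected on all 16 arrays. A further *Mef2a* probe (ILMN_1248647) was detected on 13 arrays, a *Mef2b* probe (ILMN_3111575) on 8 and the remaining *Mef2c* probe (ILMN_1214950) on 2. Both *Hdac9* probes, 1 *Mef2a* probe (ILMN_1221253) and 1 *Mef2b* probe (ILMN_2609630) were detected on 0 of 16 arrays, with intensities no higher than 183. No level of *Hdac9* could therefore be given in any group.

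**Figure D1:**
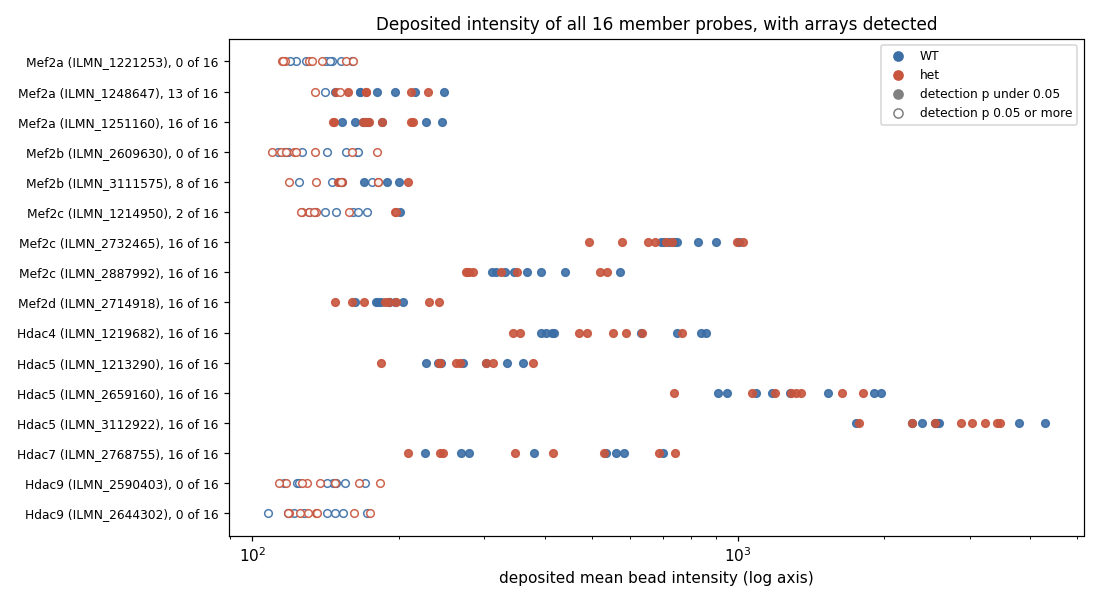
Deposited mean bead intensity (log axis) of the 16 probes on each of the 16 arrays, with the number of arrays on which each probe was detected. Filled points are detected values and open points are not, and the 2 *Hdac9* rows are open throughout.

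Probes detected on at least 4 of the arrays of a fit were tested, which left 10 of the 16 probes at P30, 11 at P1 and 11 in the comparisons between ages. Replicate arrays correlated at r = 0.985 or more within an age over all probes. Within each age the arrays fell into a larger and a smaller cluster, found by clustering on the correlation over all probes. The smaller clusters were WT and *Mef2c*-het replicate 8 at P1, and WT replicates 6 and 7 and *Mef2c*-het replicate 7 at P30. Their 5th percentile of intensity was 140 to 161, against 106 to 131 on the other arrays. Of the listed markers, 7 of 8 neuronal and 7 of 8 hippocampal field genes passed the filter over 16 arrays. So did 5 of 5 thalamus, 4 of 6 striatum and 3 of 5 neocortex markers, so that the filter cannot show the source tissue. *Snap25*, the neuronal marker that did not pass, was detected on 0 arrays at either age.

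*Mef2c*, the targeted gene, was read first in every sample. At P30 the probe ILMN_2887992 read 8.58, 8.56, 8.92 and 8.66 (log2 normalized intensity) in WT replicates 2, 3, 6 and 7. The same probe read 8.13, 8.39, 8.13 and 8.91 in *Mef2c*-het replicates 3, 5, 6 and 7. In 3 of 4 *Mef2c*-het mice the level was below every WT value, and the fourth, replicate 7, was within the WT range. The mean difference was -0.29 log2 units (95% CI -0.67 to 0.08, SE 0.17), which is 81.7% of the WT level (63.0% to 105.9%), with an adjusted p of 0.976 in limma.

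The *Mef2c* probe ILMN_2732465 read 9.56, 9.75, 9.75 and 9.57 in the 4 WT mice at P30 and 9.16, 9.71, 8.93 and 9.87 in the 4 *Mef2c*-het mice. *Mef2c*-het replicates 3 and 6 were lower than all WT mice, replicate 5 was among them and replicate 7 was above them. The difference was -0.24 (95% CI -0.66 to 0.18, adjusted p = 0.976). The *Mef2c*-het SD was 0.446 on this probe, against 0.106 in WT. Position on the transcript could not be read for these probes, and they do not check the genotype labels.

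At P30 the *Mef2c* difference was not the same in the 2 array clusters. In the larger cluster (3 *Mef2c*-het against 2 WT arrays) it was -0.35 on ILMN_2887992 and -0.39 on ILMN_2732465. In the smaller cluster (1 against 2 arrays) it was 0.12 and 0.21. Leaving out single arrays moved ILMN_2887992 between -0.47 (without *Mef2c*-het replicate 7) and -0.20 (without *Mef2c*-het replicate 6). It moved ILMN_2732465 between -0.39 (without *Mef2c*-het replicate 7) and -0.079 (without *Mef2c*-het replicate 6), with -0.15 without *Mef2c*-het replicate 3. *Mef2c* is also expressed by microglia. At P30, 10 of 12 microglial genes tested were on the higher side in *Mef2c*-het, as were 6029 of all 13413 probes tested. Of the microglial genes, 2 had an unadjusted p under 0.05, against 2.36% of all tested probes, and none passed the adjusted threshold. The summed log2 levels of the microglial genes were 12.99 to 13.30 in *Mef2c*-het against 12.89 to 13.20 in WT. Of 7 neuronal marker genes tested, 5 were on the lower side in *Mef2c*-het, with a median of -0.095. A fit with the array cluster as a block gave -0.19 (SE 0.10) on ILMN_2887992 and -0.18 (SE 0.15) on ILMN_2732465 at P30. The part of the array cluster, of microglia or of neurons in the *Mef2c* values was not otherwise tested.

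In day-old mice no difference in *Mef2c* passed the test. WT replicates 1, 4, 5 and 8 read 8.34, 8.35, 8.50 and 8.51 on ILMN_2887992, and *Mef2c*-het replicates 1, 2, 4 and 8 read 8.22, 8.47, 8.44 and 8.82. The *Mef2c*-het values lay on both sides of the WT values. The difference was 0.067 (95% CI -0.20 to 0.33) on this probe and -0.0059 (95% CI -0.28 to 0.26) on ILMN_2732465, each with an adjusted p of 0.9998. On ILMN_2887992 it was -0.016 within the larger array cluster and 0.32 between the single arrays of the smaller one.

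*Hdac4*, a deacetylase that shuttles between nucleus and cytoplasm of neurons, had the clearest genotype difference among the members, and it was seen at P30. WT replicates 2, 3, 6 and 7 read 9.51, 9.60, 9.49 and 9.63, and *Mef2c*-het replicates 3, 5, 6 and 7 read 9.18, 9.23, 9.28 and 9.44. All 4 *Mef2c*-het values were below all 4 WT values. The means were 9.28 ± 0.11 in *Mef2c*-het and 9.56 ± 0.070 in WT (SD, n = 4), a difference of -0.27 (SE 0.073, 95% CI -0.44 to -0.11), or 82.8% of the WT level. An exact permutation test of this single probe gave a two-sided p of 0.0286, the smallest that 4 against 4 arrays allow.

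This *Hdac4* difference did not pass the test across all probes. In limma its unadjusted p was 0.0041 and its adjusted p 0.976 over 13413 probes. Groups that did not overlap were found for 1 of the 10 member probes tested at P30 and for 1.75% of all tested probes. Within the larger array cluster the difference was -0.32 and within the smaller one -0.12. At P1 the *Hdac4* groups overlapped, at 8.55 to 8.91 in *Mef2c*-het and 8.62 to 8.82 in WT, and the difference was 0.033 (95% CI -0.17 to 0.24).

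**Figure D2:**
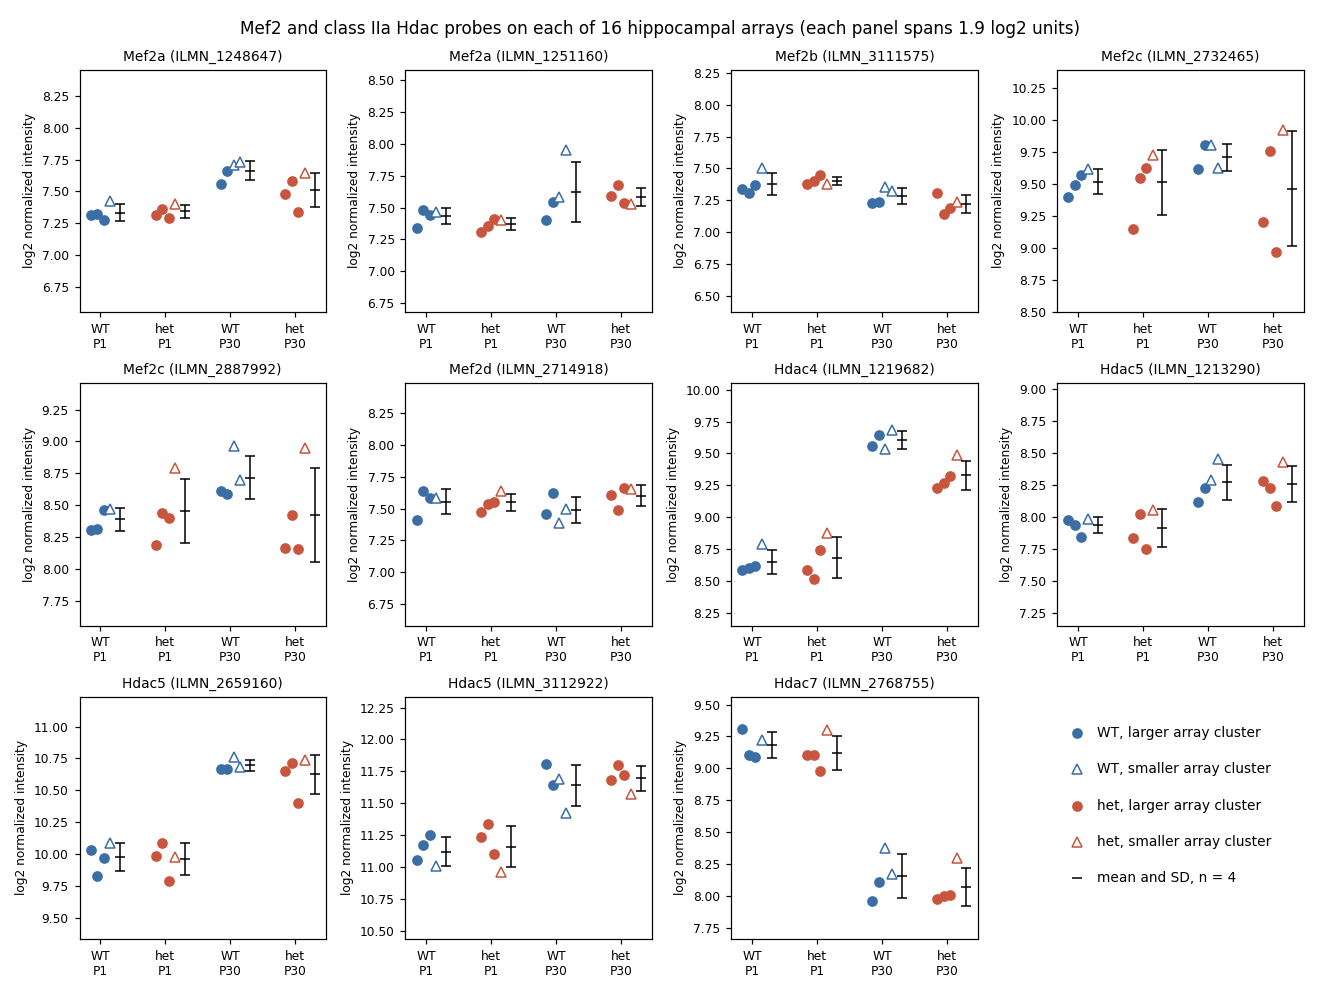
Log2 normalized intensity (y axis, 16 arrays normalized together, 1.9 units per panel) of the 11 tested probes in each mouse of the 4 groups, with bars for mean and SD (n = 4), filled circles for the larger and open triangles for the smaller array cluster. *Hdac4* at P30 is lower in all 4 *Mef2c*-het mice than in all 4 WT mice, *Mef2c* spreads widely in *Mef2c*-het mice at P30, and *Hdac7* falls from P1 to P30 in both genotypes.

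No MEF2 factor or deacetylase passed the test between genotypes. Over the 10 member probes tested at P30, 0 passed an adjusted p of 0.05 in limma and 1 (*Hdac4*) had an unadjusted p under 0.05. Over all tested probes 0.00746% passed the adjusted threshold and 2.36% had an unadjusted p under 0.05. Log2 differences ran from -0.29 to 0.11 with a median of -0.077, against a median of -0.011 over all tested probes. *Mef2d*, a broadly expressed MEF2 factor, differed by 0.11 (95% CI -0.049 to 0.26), and the *Mef2a* probes by -0.15 (95% CI -0.32 to 0.026) and -0.040 (95% CI -0.28 to 0.20). The 3 *Hdac5* probes differed by -0.071, -0.015 and 0.051, and *Hdac7* by -0.084 (95% CI -0.31 to 0.14). At P1, 0 of 11 member probes passed the adjusted threshold and 0 had an unadjusted p under 0.05, with differences from -0.066 to 0.067. Over all probes tested at P1, 0% passed the adjusted threshold and 1.62% had an unadjusted p under 0.05 in limma. Groups that did not overlap were found for 1.29% of all probes tested at P1 and for 0 of the 11 member probes.

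**Figure D3:**
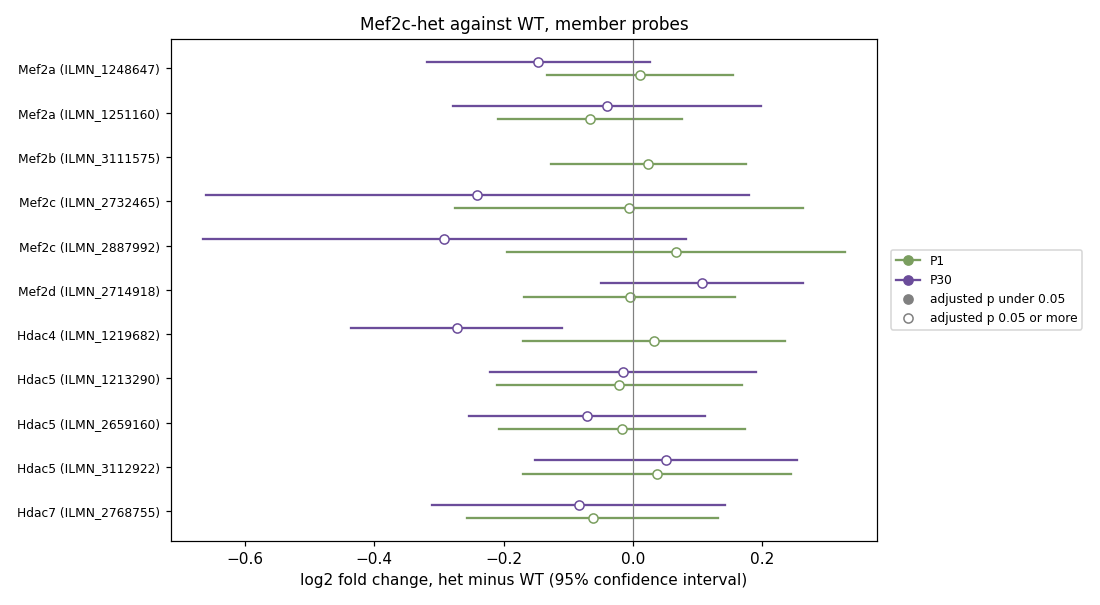
Log2 fold change of *Mef2c*-het against WT (x axis, with its 95% confidence interval) for the 11 tested probes at P1 and P30. All points are open, since no adjusted p was under 0.05, and the *Hdac4* interval at P30 (-0.44 to -0.11) does not reach 0.

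All 5 tested deacetylase probes, the *Hdac5* probes among them, passed the adjusted threshold with age in each genotype. So did 59.7% of all tested probes in WT and 58.3% in *Mef2c*-het. Where the ages are said not to overlap, the share of all probes that do so was not counted. *Hdac7* was the member that fell. In WT it read 9.31, 9.11, 9.09 and 9.22 at P1 and 7.96, 8.11, 8.37 and 8.17 at P30, in the order of the replicate numbers. The lowest P1 value was above the highest P30 value by more than the range of either group. In *Mef2c*-het mice it read 9.11, 9.10, 8.98 and 9.30 at P1 and 7.98 to 8.29 at P30, again without overlap. The fall was 2.04-fold in WT (log2 change -1.03, SE 0.096, adjusted p = 1.06e-07) and 2.07-fold in *Mef2c*-het (log2 change -1.05, SE 0.096, adjusted p = 8.17e-08).

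*Hdac4* rose with age. The WT values were 8.59, 8.61, 8.62 and 8.79 at P1 and 9.56, 9.65, 9.54 and 9.68 at P30, a rise of 1.94-fold (log2 change 0.96, SE 0.082, adjusted p = 3.35e-08). The *Mef2c*-het values were 8.59, 8.52, 8.75 and 8.88 at P1 and 9.23, 9.27, 9.33 and 9.49 at P30, a rise of 1.57-fold (log2 change 0.65, SE 0.082, adjusted p = 3.61e-06). Ages did not overlap in either genotype, a description given without the share over all probes. From high to low, the group means of *Hdac4* were ordered as WT P30, *Mef2c*-het P30, *Mef2c*-het P1 and WT P1. The 2 groups at P1 did not differ beyond their spread, and the genotypes at P30 did not differ past the adjusted threshold (limma adjusted p = 0.976).

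*Hdac5*, a close relative of *Hdac4* and the holder of the MEF2 motif printed above, rose on all 3 of its probes. On ILMN_2659160 the WT values were 9.83 to 10.08 at P1 and 10.67 to 10.76 at P30, and the *Mef2c*-het values were 9.79 to 10.09 and 10.40 to 10.74. Its rise was 1.65-fold in WT (adjusted p = 1.14e-06) and 1.59-fold in *Mef2c*-het (adjusted p = 2.85e-06). ILMN_3112922 rose 1.44-fold and 1.45-fold, and ILMN_1213290 rose 1.26-fold and 1.27-fold. The probes therefore shared a direction and differed in size. No age groups overlapped on any of them, a description given without the share over all probes.

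Of the 6 tested MEF2 probes, 1 was called higher with age in WT, and 1 higher and 1 lower (*Mef2b*) in *Mef2c*-het. Over all tested probes 28% were called higher and 31.7% lower in WT, and 26.9% and 31.4% in *Mef2c*-het. *Mef2a*, a factor of mature neurons and muscle, rose on ILMN_1248647 from 7.33 ± 0.064 to 7.66 ± 0.076 in WT (log2 change 0.33, adjusted p = 0.000448) and from 7.34 ± 0.050 to 7.51 ± 0.13 in *Mef2c*-het (log2 change 0.17, adjusted p = 0.0410). With normexp background correction these log2 changes were 1.00 and 0.53. The *Mef2c*-het groups overlapped, and the call was lost when 1 of 6 of its 8 arrays was left out or when the smaller clusters were left out (adjusted p = 0.0999). The other tested *Mef2a* probe gave 0.19 in WT (adjusted p = 0.0782) and 0.21 in *Mef2c*-het (adjusted p = 0.0510). In WT it passed without P30 replicate 2 (0.26, adjusted p = 0.0166) and was 0.081 without P30 replicate 7 and 0.057 without the smaller clusters. In *Mef2c*-het it passed under 8 alternatives (adjusted p as low as 0.00865), and with normexp its log2 change was 0.50 in WT and 0.65 in *Mef2c*-het.

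*Mef2c* itself passed the test in neither genotype. In WT, ILMN_2887992 read 8.31 to 8.47 at P1 and 8.59 to 8.96 at P30, with a log2 change of 0.33 (95% CI -0.0020 to 0.66, adjusted p = 0.0809). The groups did not overlap, again without the share over all probes. In *Mef2c*-het mice the same probe gave -0.033 (95% CI -0.36 to 0.30). On ILMN_2732465 the changes were 0.19 (95% CI -0.17 to 0.56) and -0.049 (95% CI -0.41 to 0.31). *Mef2d* gave -0.064 and 0.053.

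*Mef2b*, best known from B cells, read 7.40 ± 0.033 at P1 and 7.22 ± 0.072 at P30 in *Mef2c*-het mice. The log2 change was -0.18 (adjusted p = 0.0134), and with normexp it was -0.61. The probe was detected on 4 of 4 *Mef2c*-het arrays at P1 and on 0 of 4 at P30. It passed the filter through the P1 arrays (7 detected, against 1 at P30), so its call is a description and no support for a fall. On each P30 array the higher of its own signal and the lowest signal of any detected probe was taken. Against these values the mean fall was 1.05-fold, given without an interval. In WT it gave -0.094 (adjusted p = 0.175), with 3 of 4 arrays detected at P1 and 1 of 4 at P30.

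**Figure D4:**
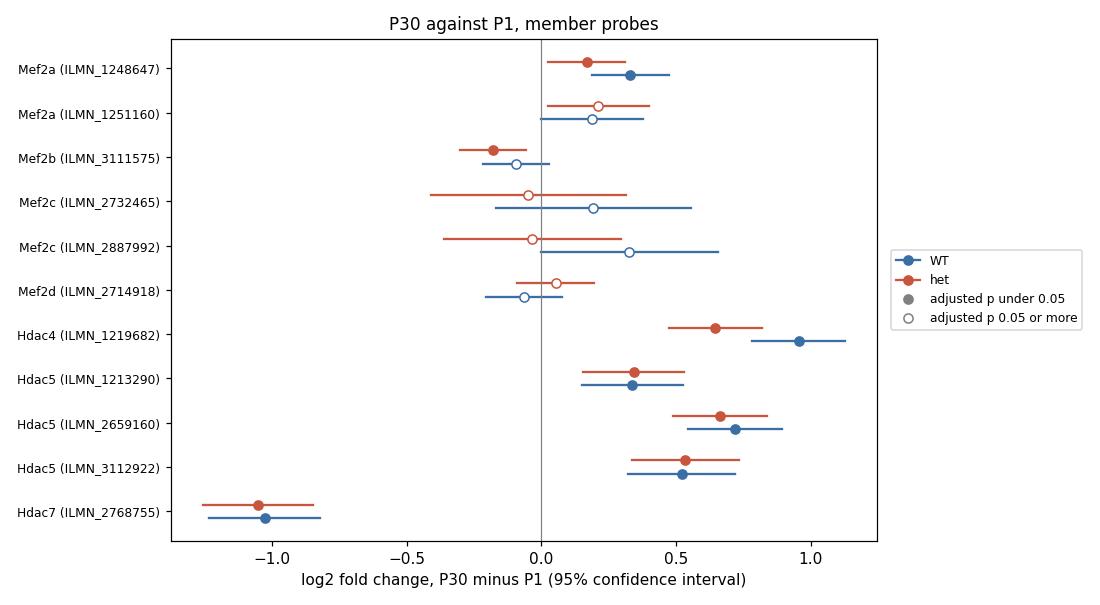
Log2 fold change of P30 against P1 (x axis, with its 95% confidence interval) for the 11 tested probes in WT and *Mef2c*-het mice, filled where the adjusted p was under 0.05. *Hdac7* lies near -1 in both genotypes, *Hdac4* and the *Hdac5* probes lie to the right of 0, and the *Mef2c* intervals include 0.

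Most of the transcriptome moved between these ages. In WT, 5 of the 11 member probes tested passed the adjusted threshold as higher and 1 as lower, against 28% of all tested probes higher and 31.7% lower. In *Mef2c*-het mice 5 passed as higher and 2 as lower, against 26.9% and 31.4%. The lower ones include the *Mef2b* probe, which passed the filter through the P1 arrays. Groups of cells that differ between the ages moved too. The summed level of 8 oligodendrocyte markers went from 10.99 to 11.64 at P1 to 16.45 to 16.68 at P30 (log2, over both genotypes), with *Mog* and *Mobp* detected on 0 of 8 arrays at P1. The sum of 6 cell cycle markers went from 11.64 to 11.91 down to 9.88 to 10.04, and that of 8 endothelial markers from 12.72 to 12.96 down to 12.24 to 12.55. The endothelial genes were divided, with 3 called higher in each genotype and 4 in WT and 5 in *Mef2c*-het called lower. The sum of 7 neuronal markers went from 15.15 to 15.37 up to 15.74 to 15.95, with 4 called higher and 2 (*Tubb3* and *Stmn2*) called lower in each genotype. Their part in the changes of *Hdac4*, *Hdac5* and *Hdac7* was not tested.

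Genotype altered no member's change with age past the adjusted threshold. The difference of the genotype effects, P30 minus P1, was -0.31 for *Hdac4* (SE 0.12, 95% CI -0.55 to -0.065, unadjusted p = 0.0165, adjusted p = 0.998). It was -0.36 (95% CI -0.83 to 0.11) and -0.24 (95% CI -0.75 to 0.27) on the *Mef2c* probes. *Hdac7* gave -0.026 (95% CI -0.31 to 0.26) and the *Hdac5* probes -0.053 to 0.014. In limma 0 of the 11 member probes passed the adjusted threshold and 1 (*Hdac4*) had an unadjusted p under 0.05. Over all tested probes the shares were 0% and 2.96%.

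Genes that act with the members were read from 5 lists. No listed gene passed the adjusted threshold between genotypes at either age. Of 10 kinases and phosphatase subunits that act on MEF2, 3 had an unadjusted p under 0.05 at P30, all lower in *Mef2c*-het: *Mapk14*, a p38 kinase that activates MEF2 (-0.17, SE 0.069), *Ppp3ca*, a calcineurin catalytic subunit (-0.22, SE 0.085), and *Gsk3b* (-0.32, SE 0.13). Each had an adjusted p of 0.976, and 2.36% of all tested probes had an unadjusted p under 0.05. All 7 tested MEF2 target genes were on the lower side at P30 and 6 of 7 on the higher side at P1. Their medians were -0.057 and 0.041, and 0 had an unadjusted p under 0.05. Over all tested probes, 7384 of 13413 were lower at P30 and 6879 of 13566 were higher at P1.

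Between the ages, counts in the lists are of genes past the adjusted threshold. Over all genes tested, 29.1% were higher and 32.8% lower in WT, and 27.9% and 33% in *Mef2c*-het. Among the kinases and phosphatase subunits that act on MEF2, 5 of 10 were higher and 1 was lower in WT, and 4 and 1 in *Mef2c*-het. In each genotype the share called higher was above that of all genes and the share called lower was below it, on 10 genes. *Ppp3r1*, the calcineurin regulatory subunit, rose 3.93-fold in WT and 3.67-fold in *Mef2c*-het, and *Ppp3ca* rose 3.39-fold and 2.65-fold. *Mapk11*, another p38 kinase, was the gene that fell, 1.20-fold and 1.14-fold.

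Kinases and 14-3-3 proteins that send class IIa deacetylases out of the nucleus went both ways. In each genotype 5 of 16 were called higher, a share near that of all genes, and 3 were called lower. *Camkk1*, a kinase that activates the CaM kinases, rose 5.17-fold in WT and 4.73-fold in *Mef2c*-het, and *Ywhah*, a 14-3-3 protein, rose 1.96-fold and 1.95-fold. *Prkd3* and *Prkd2*, protein kinase D members, fell 1.60-fold and 1.44-fold in WT and 1.86-fold and 1.62-fold in *Mef2c*-het.

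The other deacetylases and the MADS-box factor *Srf* were also divided. Of 8 tested, 2 were higher and 4 lower in WT, and 2 and 3 in *Mef2c*-het. *Hdac11* rose 3.12-fold in WT and 3.51-fold in *Mef2c*-het, and *Srf* rose 1.60-fold and 1.59-fold. *Hdac2*, a class I deacetylase, fell 2.43-fold and 2.20-fold, and *Hdac10* fell 1.68-fold and 1.59-fold.

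Of 7 MEF2 target genes tested, 5 were called higher with age in each genotype and 0 were called lower, against 29.1% and 32.8% of all genes in WT and 27.9% and 33% in *Mef2c*-het. *Arc*, an immediate early gene of synaptic plasticity, rose 11.9-fold in WT and 10.5-fold in *Mef2c*-het. *Bdnf*, which encodes a neurotrophin, rose 3.39-fold in WT and 2.61-fold in *Mef2c*-het. Of 8 corepressors and coactivators of MEF2, 2 were higher and 2 lower in WT and 0 and 2 in *Mef2c*-het. *Ncor1*, the corepressor that class IIa deacetylases recruit, rose 1.75-fold in WT, and *Kat2b* rose 1.17-fold. *Gps2* and *Tbl1x*, subunits of the same corepressor complex, fell 1.52-fold and 1.24-fold in WT and 1.53-fold and 1.47-fold in *Mef2c*-het.

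Genes whose level followed the *Mef2c* probe ILMN_2732465 over the 16 arrays were *Taz* (r = 0.889), *Arl5a* (0.846), *Gnao1* (0.830), *Supt5* (0.811) and *Dzip3* (0.802). Over deviations from the group means they were *Eml5* (0.915), *Rab6a* (0.906), *Mpdz* (0.898), *Arl5a* (0.879) and *Taz* (0.877). The second *Mef2c* probe followed it at r = 0.840 over levels and 0.826 over deviations. These are descriptions over 16 arrays that share groups, clusters and normalization. Deviations of the *Hdac5* probes did not all go together, at r = 0.62 for ILMN_1213290 with ILMN_2659160 and -0.57 for ILMN_1213290 with ILMN_3112922.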

How the data were processed

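Hippocampal RNA of 16 mice was hybridised to Illumina MouseRef-8 beadchips, 4 arrays per group. The deposited table gives, for each probe and array, an unnormalized linear intensity averaged over beads and a detection p-value that the authors' software set against negative control beads. Deposited bead standard errors (intensity units) and bead counts, which are whole numbers, stand beside them. The submitters' processing notes name lumi and limma, and the methods state log2 transformation and quantile normalization. These steps were repeated with R 4.3.3 and limma 3.58.1. Genotype comparisons used the 8 arrays of an age, and comparisons of ages used all 16. A probe was kept where at least 4 arrays of the fit detected it (detection p under 0.05). lmFit and eBayes then gave two-sided p-values, adjusted by the Benjamini-Hochberg method over every probe kept. Single probes were also tested with an exact permutation test. Groups came from the sample titles. The study compared *Mef2c*-het mice with WT littermates, but the sources used here do not tie replicate numbers to litters or days, and the number of arrays limits the precision.

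The 8 genes and the gene lists were chosen with earlier results of these data known. All 16 member probes were reported. Of each pathway list, the called genes with the 2 largest rises and 2 largest falls with age were named. In the genotype comparisons the rule named every listed gene past the adjusted threshold, of which there were none, so *Mapk14*, *Ppp3ca* and *Gsk3b* at P30 were named after their values were seen. The 5 genes most like the brightest *Mef2c* probe were named for levels and for deviations. Probes were matched to RefSeq genes for 25376 of 25697. Marker lists covered neurons, hippocampal fields, interneurons, microglia, endothelium, astrocytes, oligodendrocytes, proliferating cells, choroid plexus, blood, neocortex, thalamus and striatum. The procedure was tested on simulated data. Alternatives were background correction, normalization, filter, variance model, array weights, array cluster, replicate block and leaving out each array.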

Additional observations from a re-analysis of the deposited data

Results flagged for a closer look

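In 2 of the 42 groups of 4 arrays examined over the tested member probes, 1 array stood far from the other 3, and chance alone gives about 1 such group in 20. *Hdac4* on WT P1 replicate 8 read 8.82 against 8.65 for the nearest array, a gap of 0.847 of the range of the group. *Hdac7* on *Mef2c*-het P30 replicate 7 read 8.26 against 7.98, a gap of 0.914 of the range. Both arrays belong to the smaller array clusters, which were defined from all probes.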

How the results depend on the processing

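Counts of member probes past the threshold stayed within 1.5 times under every alternative run: 0 in both genotype comparisons and in the difference between them, 6 to 7 in WT and 6 to 8 in *Mef2c*-het between the ages. The signs of *Hdac4*, *Hdac7*, *Hdac5* and *Mef2a* with age, of *Hdac4* at P30 (-0.33 to -0.12) and of its difference between ages (-0.42 to -0.24) did not change. Normexp background correction moved changes with age in *Mef2a* and *Mef2b* by over 1.5 times (*Mef2a* ILMN_1248647 in WT to 1.00), and *Hdac5* ILMN_1213290 to 0.61 in WT and 0.63 in *Mef2c*-het. With it the *Hdac7* change with age grew to -1.50 in WT and -1.58 in *Mef2c*-het, and together with median scaling, an alternative chosen after seeing the data, to -1.52 and -1.62. *Mef2c* ILMN_2887992 with age in WT passed the threshold with cyclic loess (adjusted p = 0.0409) and array weights (adjusted p = 0.0445). With the replicate block *Hdac4* at P30 gave -0.27 (adjusted p = 0.896). Whether replicate numbers pair the arrays is not stated in the sources used here. Deviations of same-numbered arrays correlated at 0.09 to 0.83 at P1 and -0.53 to 0.71 at P30. The arrays were not treated as pairs. With that block, probes with an unadjusted p under 0.05 in limma went from 220 to 949 at P1 and from 316 to 502 at P30. Probes past the adjusted threshold went from 0 to 3 at P1 and from 1 to 0 at P30. The changes with age could not be estimated with that block.

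Some values that had passed no test changed sign, and the cause was not tested. The *Mef2c* differences at P30 (-0.29 and -0.24) were the largest of these, and the others lay between -0.084 and 0.067. For *Hdac5* ILMN_1213290 at P30 it was 0.013 with median scaling, 0.013 with cyclic loess, 0.037 with the cluster block, 0.025 within the larger and 0.058 within the smaller cluster. In the smaller cluster at P30, *Hdac5* ILMN_2659160 gave 0.013, *Hdac7* 0.020, and *Mef2c* 0.12 (ILMN_2887992) and 0.21 (ILMN_2732465). *Mef2a* ILMN_1251160 at P30 gave 0.012 with array weights and 0.12 within the larger cluster. At P1 the smaller cluster gave -0.041, 0.076, 0.076, -0.023, -0.13, 0.12 and 0.056 for *Hdac5* ILMN_3112922 and ILMN_1213290, *Hdac7*, *Mef2a* ILMN_1248647, *Mef2b*, *Mef2c* ILMN_2732465 and *Mef2d*. The larger cluster gave 0.012 for *Hdac5* ILMN_2659160 and -0.016 for *Mef2c* ILMN_2887992, the replicate block -0.018 for *Mef2a* ILMN_1248647, 0.0002 for *Mef2c* ILMN_2732465 and 0.0097 for *Mef2d*, and array weights 0.0080 for *Mef2d*. Cyclic loess turned *Mef2c* with age in *Mef2c*-het to 0.028 and 0.0091. In the difference between ages *Hdac5* ILMN_3112922 gave -0.018 (array weights), -0.028 (cluster block), -0.057 (larger clusters, added after seeing the data) and -0.070 (normexp with median scaling), *Hdac5* ILMN_1213290 -0.017 with the last, *Hdac7* 0.0077 (median scaling), 0.041 (cluster block) and 0.064 (larger clusters), and *Mef2a* ILMN_1251160 -0.090 (replicate block).

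Leaving out each array in turn gave, at P30, -0.022 to 0.11 (*Hdac5* ILMN_3112922), -0.072 to 0.044 (ILMN_1213290), -0.11 to 0.0052 (ILMN_2659160) and -0.11 to 0.070 (*Mef2a* ILMN_1251160). At P1 it gave -0.033 to 0.086 (*Hdac4*), -0.019 to 0.10, -0.070 to 0.037 and -0.065 to 0.040 (*Hdac5*, same order), -0.011 to 0.045 (*Mef2a* ILMN_1248647), -0.0021 to 0.071 (*Mef2b*), -0.045 to 0.16 and -0.079 to 0.12 (*Mef2c*) and -0.054 to 0.023 (*Mef2d*). With age in *Mef2c*-het the *Mef2c* probes gave -0.21 to 0.079 and -0.20 to 0.12. The difference between ages gave -0.059 to 0.073, -0.052 to 0.065 and -0.11 to 0.022 (*Hdac5*, same order), -0.10 to 0.048 (*Hdac7*) and -0.049 to 0.14 (*Mef2a* ILMN_1251160).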

Other observations

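The remaining marker lists were read for the same comparisons, and no marker gene passed the adjusted threshold between genotypes at either age. The median log2 difference of *Mef2c*-het against WT at P30 was -0.095 over 7 neuronal, 0.045 over 7 hippocampal field and 0.071 over 7 interneuron genes. It was -0.079 over 8 endothelial, -0.021 over 7 astrocyte and -0.092 over 8 oligodendrocyte genes. For 3 cell cycle, 3 choroid plexus, 4 blood, 3 neocortex, 4 thalamus and 4 striatum genes it was 0.032, -0.15, 0.088, 0.013, -0.012 and 0.014. Microglial genes gave a median of 0.13 at P30 and -0.13 at P1. Choroid plexus markers had the widest range within a group, with a summed log2 level of 10.35 to 14.42 over the 4 WT arrays at P30.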
